A study of Mus musculus with 18 samples.

Results

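The comparison set activated B cells against naive B cells from the spleen of control (Ctrl) mice. Its members were chosen by column name: control activated B cell libraries 1, 3 and 4 and control naive B cell libraries 1, 2 and 3, which make 6 of the 18 libraries of the series. The other 12 libraries hold plasma cells and a second genotype (KO), with G9a fl/fl and a B cell Cre allele, built to delete the histone methyltransferase G9a in B cells. Activated B cells came from mice given 50 µg lipopolysaccharide (LPS, a bacterial cell wall component) in a volume of 100 µl into the tail vein. They were sorted after 72 h as Zombie yellow-, F4/80-, Cd11b-, Thy1.2- and B220+GL7+ cells. Naive B cells came from uninfected mice and were enriched with CD43 MicroBeads, which hold back cells that carry CD43, with no sort and no LPS. All 6 libraries came from mice heterozygous for the same B cell Cre allele, so naive and activated cells alike carried the Cre recombinase gene, and the label names no floxed allele. RNA of 1000 cells per library was amplified with SMART-seq v4 and tagged with Nextera XT. The age of the mice is not given. The labels do not tie libraries to animals, and p-values cover the spread between libraries, which may be technical. Cell state, LPS and the means of isolation changed together and cannot be told apart. Neither can more cells of a kind and more RNA per cell, since each library is a bulk sample.

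A naive B cell circulates between blood, spleen and lymph nodes in a resting state, kept there by transcription factors that hold back growth and keep its homing receptors on. LPS is sensed by B cells through Toll-like receptor 4 and its relative RP105, and starts growth and division within days. Dividing B cells may switch immunoglobulin class and part of them become plasmablasts, which enlarge the endoplasmic reticulum under XBP1 and BLIMP-1. GL7, the surface glycan used in the sort, is found on germinal centre and other activated B cells.

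The groups of genes that moved together have known promoter elements, so promoter sequences of 7 members are shown before the values. They are RefSeq promoters on GRCm38.p6, 250 bases before to 50 bases after the start, on the strand of the gene. The first 3 are mitotic genes, shown for the CHR (cell cycle genes homology region, TTTGAA or TTCGAA) and the NF-Y box (CCAAT), which are known to govern late cell cycle genes. Capitals mark matches on either strand, and adjoining or overlapping matches run together. Ube2c (chr2:164769679-164769978, + strand) and Ccnb2 (chr9:70421505-70421804, - strand) hold both elements, and Pttg1 (chr11:43425932-43426231, - strand), the 1 mitotic gene that was lower, holds no match to either. Lack of a CHR match did not mark lower genes, since 11 of the 12 mitotic genes without a match were higher.
Ube2c: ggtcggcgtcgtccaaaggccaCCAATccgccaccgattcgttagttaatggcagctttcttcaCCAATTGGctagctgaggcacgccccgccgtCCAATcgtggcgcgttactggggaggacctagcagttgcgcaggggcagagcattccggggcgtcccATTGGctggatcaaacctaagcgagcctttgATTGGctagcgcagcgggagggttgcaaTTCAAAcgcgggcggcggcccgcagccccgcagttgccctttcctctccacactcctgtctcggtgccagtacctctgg
Ccnb2: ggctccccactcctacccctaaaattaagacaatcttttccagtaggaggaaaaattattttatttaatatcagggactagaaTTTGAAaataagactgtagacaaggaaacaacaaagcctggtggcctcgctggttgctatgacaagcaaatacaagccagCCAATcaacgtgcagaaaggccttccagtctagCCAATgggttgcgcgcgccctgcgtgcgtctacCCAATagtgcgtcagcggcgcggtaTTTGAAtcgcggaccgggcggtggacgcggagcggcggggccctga
Pttg1: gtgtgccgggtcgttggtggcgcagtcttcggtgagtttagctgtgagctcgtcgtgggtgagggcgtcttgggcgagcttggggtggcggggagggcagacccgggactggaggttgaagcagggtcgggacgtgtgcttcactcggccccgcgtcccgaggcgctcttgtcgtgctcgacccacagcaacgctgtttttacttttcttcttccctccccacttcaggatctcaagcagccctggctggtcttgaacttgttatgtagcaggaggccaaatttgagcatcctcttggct
Mcm5 (chr8:75109259-75109558, + strand), a subunit of the replicative helicase, is shown for its E2F sites (TTTGGCGC, TTTCCCGC, TTTCGCGC or TTTGCCGC) and NF-Y boxes. Its capitals at 153 bases before the start are E2F matches on both strands that overlap.
Mcm5: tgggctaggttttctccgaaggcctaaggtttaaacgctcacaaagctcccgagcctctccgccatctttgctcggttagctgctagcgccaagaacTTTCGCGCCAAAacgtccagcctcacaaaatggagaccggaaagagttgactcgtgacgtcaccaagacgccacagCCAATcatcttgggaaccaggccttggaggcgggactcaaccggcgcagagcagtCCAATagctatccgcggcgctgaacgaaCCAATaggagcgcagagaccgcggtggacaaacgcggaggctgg
Hspa5 (chr2:34771840-34772139, + strand) and Derl3 (chr10:75893148-75893447, + strand) are shown for the endoplasmic reticulum stress element (ERSE: CCAAT, 9 bases, then CCACG), which binds ATF6 and XBP1 together with NF-Y. In Derl3 the element lies on the opposite strand.
Hspa5: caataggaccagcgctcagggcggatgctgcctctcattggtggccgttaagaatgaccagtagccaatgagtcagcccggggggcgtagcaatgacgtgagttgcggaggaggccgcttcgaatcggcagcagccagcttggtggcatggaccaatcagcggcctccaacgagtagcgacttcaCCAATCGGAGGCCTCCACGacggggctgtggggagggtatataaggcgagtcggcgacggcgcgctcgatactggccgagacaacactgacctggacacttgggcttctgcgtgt
Derl3: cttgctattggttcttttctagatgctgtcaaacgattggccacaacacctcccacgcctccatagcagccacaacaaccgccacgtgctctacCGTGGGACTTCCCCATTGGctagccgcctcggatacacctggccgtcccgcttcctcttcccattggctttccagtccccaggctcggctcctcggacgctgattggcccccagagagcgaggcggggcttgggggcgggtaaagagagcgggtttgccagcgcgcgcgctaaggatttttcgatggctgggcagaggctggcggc
Aars (chr8:111033592-111033891, + strand), the alanyl-tRNA synthetase gene, is shown for a match to the composite element of ATF4 (TGATGNAAT).
Aars: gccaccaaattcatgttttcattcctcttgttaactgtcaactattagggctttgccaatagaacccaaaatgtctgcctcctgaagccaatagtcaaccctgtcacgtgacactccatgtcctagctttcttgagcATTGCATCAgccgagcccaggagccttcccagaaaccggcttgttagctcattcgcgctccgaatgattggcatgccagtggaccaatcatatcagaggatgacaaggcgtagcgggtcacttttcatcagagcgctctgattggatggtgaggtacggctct

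CHR matches were found in 37 of 49 mitotic promoters (75.5%), against 17.5% of the promoters of 10066 tested genes. E2F matches were found in 15 of 36 replication promoters (41.7%), against 4.6% of all. ERSE matches were found in 10 of 33 promoters of endoplasmic reticulum folding genes (30.3%), namely Calr, Canx, Creld2, Derl3, Dnajc3, Ero1lb, Hsp90b1, Hspa5, Pdia6 and Syvn1, and in 20 of all 10066 (0.2%). The ATF4 element was found in 3 of 13 tRNA synthetase promoters (Aars, Gars and Iars; 23.1%), against 0.6% of all. Within the lists a match went with a larger median change for CHR and ERSE, and with a smaller one for E2F. The 37 mitotic genes with a CHR match had a median log2 change of 3.15 (range 1.40 to 6.34), and the 12 without had 3.02 (range -1.39 to 5.10). The 15 replication genes with an E2F match had a median of 1.31, with 10 higher and 2 lower. The 21 without had 2.03, with 19 higher and 1 lower. The 10 folding genes with an ERSE match were all higher, with a median of 1.43 (range 0.59 to 5.0). Of the 23 folding genes without a match 14 were higher and 4 lower, with a median of 1.12. A match is a run of letters and not a shown binding site, and the lists were built from genes whose regulation is partly known, so these shares describe the lists. The plot of motif matches sets these shares beside those of all tested genes.

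**Figure D1:**
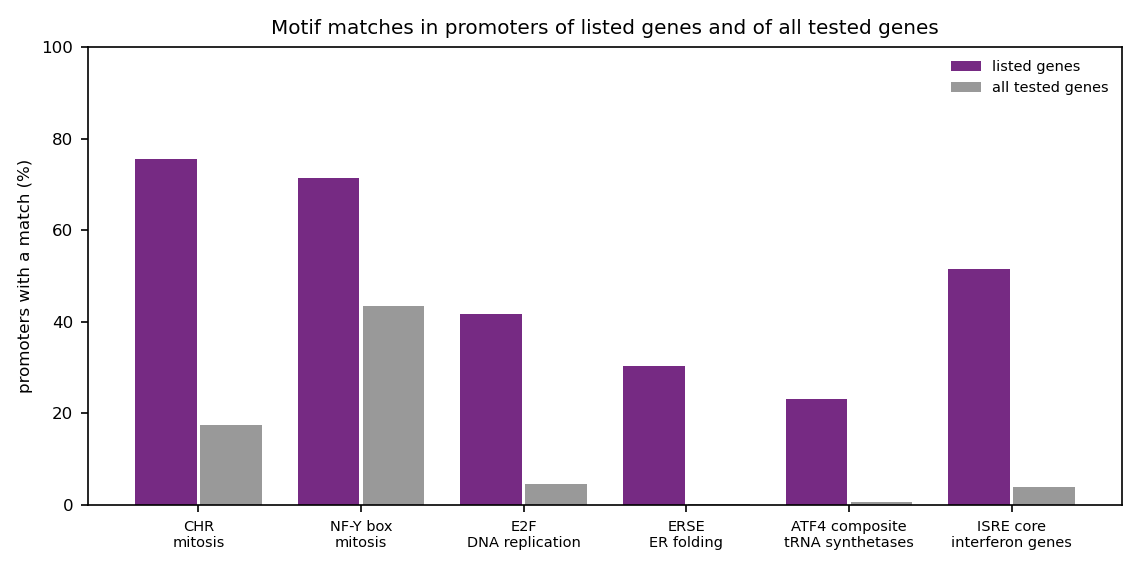
Share of promoters with a motif match (percent, vertical axis from 0) for genes of a list (purple) and for all tested genes (grey), for 6 pairs of motif and list. The NF-Y box was found in 71.4% of mitotic promoters and 43.5% of all promoters, and the core of the interferon-stimulated response element in 51.5% of the promoters of interferon-stimulated genes and 4.0% of all.

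The values used are RPKM, read counts relative to gene length and library depth, scaled between libraries, and changes are differences of log2(scaled RPKM + 1), activated minus naive, with adjusted p-values from limma. Of 12586 genes tested, 2046 were higher in activated cells (16.3%) and 4464 were lower (35.5%), with a median log2 change of -0.30. The split followed the level of the gene. Below 5 RPKM 152 genes were higher and 2716 lower of 4611, with a median of -1.02. From 20 to 100 RPKM 978 were higher and 600 lower of 3007, with a median of 0.17, and at 100 RPKM or more 289 were higher and 195 lower of 700. Odorant, vomeronasal and taste receptor genes, which B cells are not known to use, were used to read the level of low values. Their median over 104 genes was 0.694, 0 and 0.780 RPKM in activated libraries 1, 3 and 4, against 4.41, 3.97 and 5.32 RPKM in naive libraries 1, 2 and 3, and 92 of the 103 tested were called lower. An activated mean under 1 RPKM was found for 88 of the 104. Genes were tested if 1 group mean reached 1 RPKM, so most of these entered through the naive group only. Their lower direction was set in advance, and the count of 92 does not test it. With the receptor median of its library subtracted from every value, a setting chosen after seeing the data, 3571 genes were higher and 872 lower of 9890 tested. Of the 2046 higher genes 2008 were still called higher and 0 lower. The subtraction took more from naive than from activated values, which moves changes upward. Higher calls kept under it, here and in the lists below, are therefore no separate check. Of the 4464 lower genes 2308 were still tested, 872 still called lower and 33 called higher. Lower calls at low levels cannot be told apart from the higher floor of the naive libraries. Of the 987 lower genes with a naive mean of at least 20 RPKM, 669 were still lower after the subtraction. With quantile normalization 2035 genes were higher and 1991 lower.

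**Figure D2:**
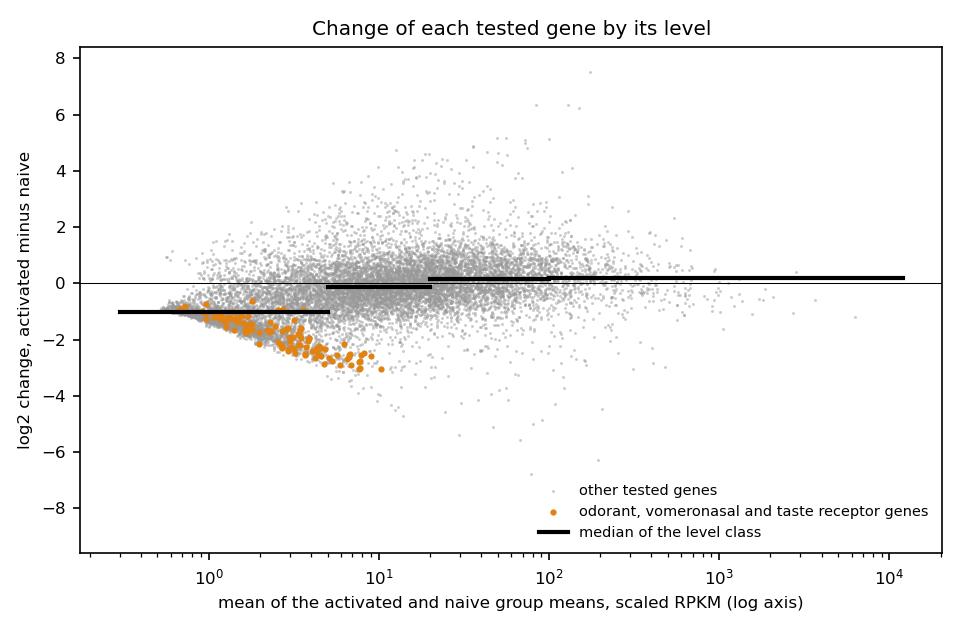
Log2 change of each tested gene (activated minus naive, vertical axis) against the mean of its activated and naive group means in scaled RPKM (log axis), with odorant, vomeronasal and taste receptor genes in orange and the median of each level class as a black bar. Low genes lie mostly under 0, with a median of -1.02 below 5 RPKM, and genes at 20 RPKM or more lie on both sides.

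Activated libraries resembled each other more than naive ones. Over the tested genes, log2 values of activated libraries correlated at 0.991 to 0.993 and those of naive libraries at 0.907 to 0.926, and the median SD of a gene was 0.134 in activated and 0.369 in naive libraries. Activated library 3 stood apart from its group in 908 genes at 0, against 40 and 47 in the other activated libraries. Depth, estimated from the steps between low values, was 6680000 to 7680000 reads in activated libraries, and the steps of naive libraries were too unclear for an estimate.

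Both groups expressed the B cell genes Cd79a, Cd79b and Ms4a1, whose values are given with the B cell receptor, and the naive libraries held more RNA of other cells. The 3 erythroid markers summed to 10.2 to 12.9 RPKM in activated libraries and 342 to 448 RPKM in naive libraries, and the 5 platelet markers to 1.28 to 1.52 RPKM and 50.5 to 131 RPKM in the same order. The 11 monocyte and macrophage markers summed to 32.1 to 37.3 RPKM in activated libraries and 143 to 173 RPKM in naive libraries. The data held 3 of 11 listed erythroid, 5 of 10 platelet and 3 of 10 neutrophil markers, and all of these were lower. Also lower were 9 of the 11 monocyte and macrophage, 5 of the 7 dendritic cell and 7 of the 8 T cell markers tested, against 35.5% of all genes. An activated mean under 1 RPKM was found for 5 platelet, 3 neutrophil, 7 monocyte and macrophage, 4 dendritic cell, 6 T cell and 1 erythroid marker. These passed the filter of 1 RPKM only through the naive group, so their lower direction was set in advance and the counts do not test it. Leaving out 1 library gave 3 or 4 lower dendritic cell markers, and 4 lower T cell markers without activated library 3. After the subtraction all 3 erythroid and 8 of 10 monocyte and macrophage markers were lower, with 2 of 4 platelet, 2 of 4 dendritic cell, 1 of 2 neutrophil and 1 of 4 T cell markers. After quantile normalization 2 of 8 T cell and 2 of 7 dendritic cell markers were lower. Among the lower markers were Hba-a2, an alpha globin (0.125, 0.428 and 0.860 RPKM in activated, against 141, 143 and 187 RPKM in naive libraries), Pf4, a platelet chemokine (1.20, 0.618 and 1.18 RPKM in activated, against 68.7, 39.5 and 36.3 RPKM in naive libraries), and C1qb, a complement subunit of macrophages (0.133, 0 and 0 RPKM in activated, against 34.0, 17.4 and 32.2 RPKM in naive libraries). The T cell markers summed to 121 to 153 RPKM in activated libraries and 214 to 270 RPKM in naive libraries, most of it Cd2, while Cd3e was at 0.196, 0 and 0 RPKM in activated and 7.03, 0 and 1.61 RPKM in naive libraries. Against the trend, Itgam, which encodes CD11b, was higher (20.9, 15.5 and 15.1 RPKM in activated, against 1.75, 2.70 and 3.01 RPKM in naive libraries; log2 change 2.39), although the sort kept Cd11b- cells. Flt3, a receptor listed for dendritic cells, was also higher (27.9, 34.3 and 31.0 RPKM in activated, against 11.1, 5.64 and 5.90 RPKM in naive libraries; log2 change 1.96). The part of other cells in the lower calls was not tested.

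**Figure D3:**
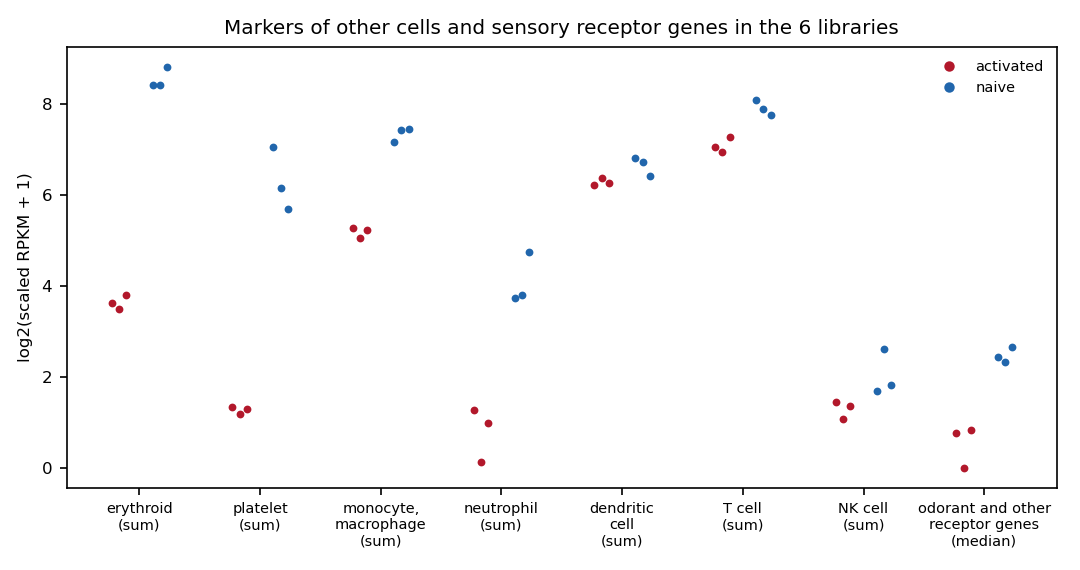
Summed level of marker lists of other cell types, and median level of odorant and other receptor genes, in each activated library (red) and naive library (blue), as log2(scaled RPKM + 1). Every marker sum shown, and the receptor median, is lower in every activated library than in any naive library.

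Genes of chromosome segregation and cell division were higher almost without exception. Of 56 genes of mitosis and cytokinesis 55 were higher and 1 lower, against 16.3% and 35.5% of all genes, with a median log2 change of 3.20, and 55 and 1 with the receptor level subtracted. Ube2c, the ubiquitin conjugating enzyme of the anaphase promoting complex, measured 253, 296 and 215 RPKM in activated, against 4.55, 0.755 and 2.16 RPKM in naive libraries (log2 change 6.34, SE 0.35, adjusted p = 4.8e-06). The cyclin B gene Ccnb2 measured 144, 150 and 123 RPKM in activated, against 22.8, 3.42 and 0.166 RPKM in naive libraries (log2 change 4.81, SE 0.84, adjusted p = 0.002), and naive library 1 stood above the other naive libraries. Plk1, a mitotic kinase, measured 113, 126 and 89.3 RPKM in activated, against 0.811, 3.03 and 2.93 RPKM in naive libraries. Bub1b, a spindle checkpoint kinase, measured 88.4, 93.4 and 70.0 RPKM in activated, against 2.49, 1.44 and 3.22 RPKM in naive libraries. In these genes all activated libraries lay above all naive libraries, and all naive values but that of Ccnb2 in library 1 were under 5 RPKM. Mki67, a marker of cycling cells, followed at 44.7, 47.8 and 53.4 RPKM in activated, against 1.39, 1.64 and 1.05 RPKM in naive libraries (log2 change 4.40). The exception was Pttg1, which encodes securin, the inhibitor of separase, at 10.5, 11.6 and 12.4 RPKM in activated, against 25.2, 32.7 and 38.6 RPKM in naive libraries (log2 change -1.39, SE 0.20, adjusted p = 6.5e-04). Every activated library lay below every naive library for Pttg1, which fell in KO cells too (log2 change -1.48).

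DNA replication followed the same course with a few exceptions. Of 44 replication genes 36 were higher and 3 lower (81.8% and 6.8%, against 16.3% and 35.5% of all genes). Their median was 1.97, and the 3 lower became 1 with the receptor level subtracted. Mcm5 measured 161, 171 and 149 RPKM in activated, against 34.0, 24.1 and 22.2 RPKM in naive libraries (log2 change 2.56, SE 0.17, adjusted p = 9.4e-06), and Cdc6, which loads the helicase, 26.2, 25.8 and 24.0 RPKM in activated, against 0.659, 0.703 and 0.201 RPKM in naive libraries (log2 change 4.13). The groups of both genes stood well apart. Uhrf1, which recruits DNA methyltransferase to newly copied DNA, measured 130, 136 and 124 RPKM in activated, against 8.77, 8.56 and 8.97 RPKM in naive libraries (log2 change 3.75). The licensing factor Cdt1 measured 15.2, 14.7 and 14.1 RPKM in activated, against 33.7, 18.9 and 26.4 RPKM in naive libraries (log2 change -0.77, adjusted p = 0.016), and Pold1, the catalytic subunit of DNA polymerase delta, 63.7, 60.2 and 57.9 RPKM in activated, against 88.6, 79.8 and 84.7 RPKM in naive libraries (log2 change -0.47, adjusted p = 0.008). Rfc1, a subunit of the clamp loader, was the other lower gene (log2 change -0.61). The Rfc1 call was lost after the subtraction (log2 change -0.318, adjusted p = 0.230) and without activated library 1, 3 or 4 (adjusted p = 0.077, 0.101 and 0.055). That of Cdt1 was lost after the subtraction (adjusted p = 0.132) and without activated library 3 or 4 (adjusted p = 0.057 and 0.056). The count of lower replication genes was 1 to 3 as libraries were left out in turn, moved by activated libraries 3 and 4. Nucleotide synthesis supplied 23 higher and 0 lower of 27 genes (85.2% and 0.0%, median 1.25, and 1.95 after the subtraction). Rrm2, the regulated subunit of ribonucleotide reductase, measured 297, 312 and 281 RPKM in activated, against 5.74, 1.76 and 2.36 RPKM in naive libraries (log2 change 6.23). Thymidylate synthase Tyms measured 31.2, 29.8 and 31.4 RPKM in activated, against 1.92, 2.52 and 3.47 RPKM in naive libraries (log2 change 3.15). Of 36 histone genes 25 were higher and 3 lower (69.4% and 8.3%, median 1.78), and 6 lower without naive library 3, counts that are uncertain because histone paralogs share reads.

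Cyclins and their inhibitors were mixed. Of 27 genes 17 were higher and 2 lower (63.0% and 7.4%, against 16.3% and 35.5% of all genes). Their median was 1.09, and the counts were 20 and 0 of 26 with the receptor level subtracted (median 1.82). The 2 lower genes were Ccnd1, a D cyclin (log2 change -2.04), and the inhibitor Cdkn1b (log2 change -0.71). Neither was called lower after the subtraction. The lower count was 1 to 4 with 1 library left out, and every library but naive library 1 moved it. Ccna2, the cyclin of S phase and mitosis, measured 174, 190 and 133 RPKM in activated, against 0, 2.22 and 1.65 RPKM in naive libraries (log2 change 6.34). The S phase entry cyclin Ccne1 measured 67.3, 56.1 and 63.1 RPKM in activated, against 1.23, 5.27 and 0.920 RPKM in naive libraries (log2 change 4.40). D cyclins answer growth signals, and Ccnd2 measured 50.5, 61.9 and 51.1 RPKM in activated, against 13.1, 14.3 and 10.2 RPKM in naive libraries (log2 change 2.05) and Ccnd3 40.1, 35.9 and 38.4 RPKM in activated, against 21.4, 12.8 and 21.7 RPKM in naive libraries (log2 change 1.03). An inhibitor of the D cyclin kinases, Cdkn2c, rose as well (20.9, 19.4 and 18.6 RPKM in activated, against 2.21, 1.80 and 2.47 RPKM in naive libraries; log2 change 2.71). Myc, the growth transcription factor, moved against these genes. It measured 30.6, 32.2 and 31.6 RPKM in activated, against 93.8, 89.3 and 85.0 RPKM in naive libraries (log2 change -1.48, SE 0.12, adjusted p = 2.8e-05), so every activated library lay below every naive library, while naive values were close together. Mxd3, a repressor of the Myc network expressed in dividing cells, was listed at 26.4, 25.3 and 24.5 RPKM in activated libraries and at 0 in all 3 naive libraries. The list of Myc and its partners had 1 gene higher and 6 lower of 11 (9.1% and 54.5%, against 16.3% and 35.5% of all genes). The counts were 1 and 1 of 10 after the subtraction and 1 and 2 of 10 after quantile normalization. At the least 3 were lower without activated library 1 or 3.

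**Figure D4:**
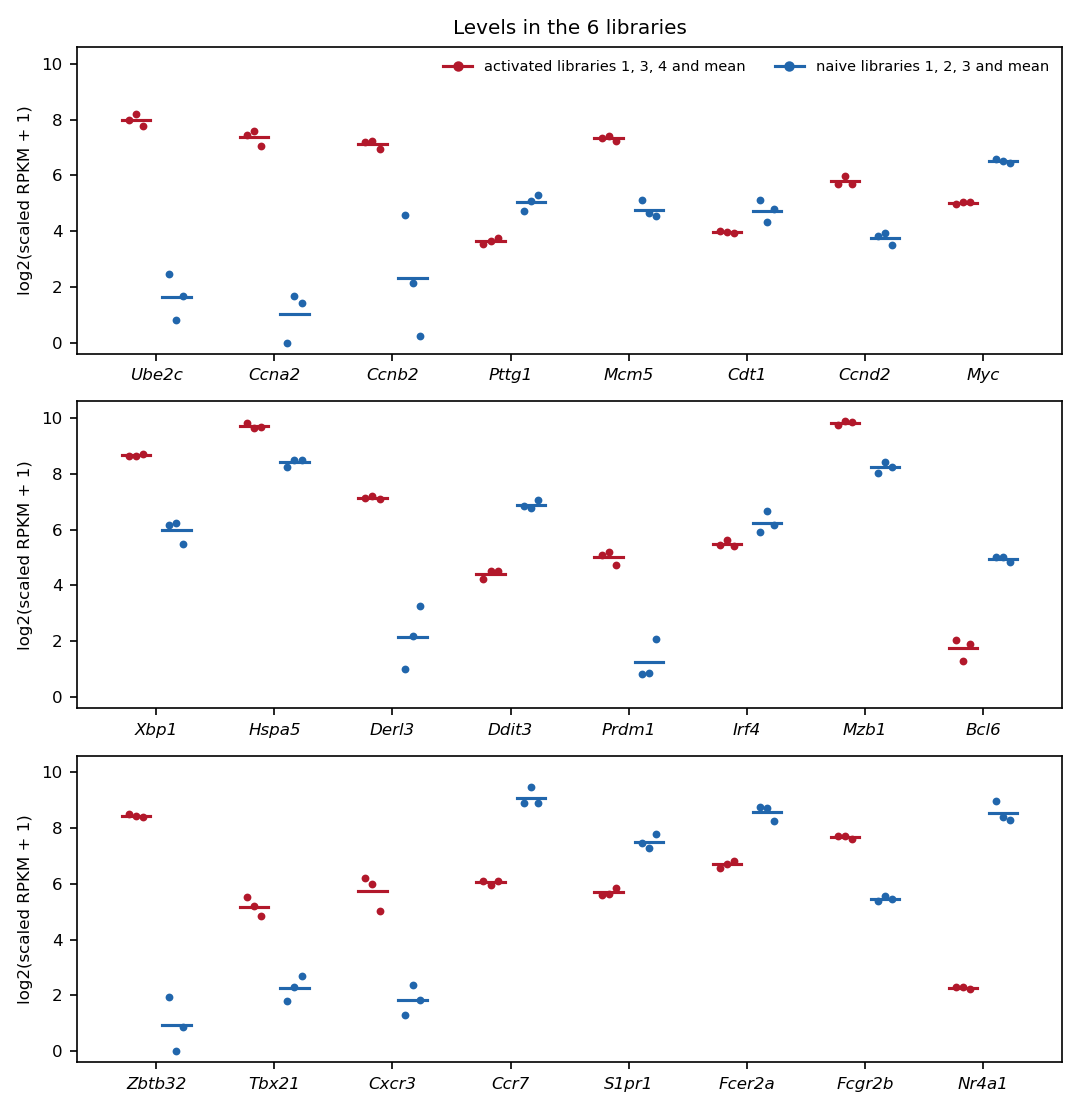
Level of 24 genes in each of the 6 libraries as log2(scaled RPKM + 1), activated (red) left of naive (blue), with the mean of each group as a line. Cell cycle genes fill the top row, secretory and plasma cell genes the middle row, and transcription factors and receptors the bottom row. Pttg1, Cdt1, Myc, Ddit3, Irf4 and Bcl6 lie lower in activated libraries than in naive ones, beside neighbours that are higher.

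Lists of growth and metabolism had more higher than lower calls, with medians under 1. Of 55 ribosome biogenesis genes 20 were higher, 0 lower and 35 not called (36.4% higher and 0.0% lower, against 16.3% and 35.5% of all genes). Their median was 0.43, and 0.77 after the subtraction, and 13 were higher without activated library 3. Npm1, the nucleolar chaperone nucleophosmin, measured 319, 345 and 316 RPKM in activated, against 108, 151 and 175 RPKM in naive libraries (log2 change 1.20). The box C/D ribonucleoprotein Nop58 measured 89.9, 84.6 and 79.9 RPKM in activated, against 25.6, 19.8 and 36.5 RPKM in naive libraries (log2 change 1.64). The related Nop56 was not called at 122, 134 and 120 RPKM in activated, against 114, 122 and 109 RPKM in naive libraries (adjusted p = 0.364). Of 59 nuclear encoded subunits of the respiratory chain and ATP synthase 42 were higher and 1 lower (71.2% and 1.7%, median 0.61). The lower count was 0 to 2 with activated library 1 or 3 or naive library 1 or 2 left out. The change was largest for the ATP synthase subunit Atp5b, with 964, 958 and 876 RPKM in activated, against 341, 442 and 454 RPKM in naive libraries (log2 change 1.19, SE 0.12, adjusted p = 8.9e-05), and the 1 lower subunit, Ndufa3 of complex I, had 292, 295 and 323 RPKM in activated, against 413, 367 and 382 RPKM in naive libraries (log2 change -0.35), a call lost without activated library 1 or 3 (adjusted p = 0.059 and 0.055). Glycolysis and the pentose phosphate pathway had 13 higher, 4 lower and 12 not called of 29 genes (44.8% higher, 13.8% lower, median 0.32). After the subtraction 16 were higher and 0 lower of 27 (median 1.12). Lactate dehydrogenase Ldha measured 643, 654 and 544 RPKM in activated, against 155, 163 and 202 RPKM in naive libraries (log2 change 1.82). Triosephosphate isomerase Tpi1 measured 218, 223 and 184 RPKM in activated, against 48.1, 49.7 and 36.9 RPKM in naive libraries (log2 change 2.20). Gapdh measured 758, 738 and 690 RPKM in activated, against 282, 229 and 239 RPKM in naive libraries (log2 change 1.55). The glucose transporter Slc2a1 was not called, with 30.7, 29.3 and 27.8 RPKM in activated, against 55.0, 28.1 and 25.3 RPKM in naive libraries (adjusted p = 0.529).

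Amino acid charging and sterol synthesis rose in most of their genes. Of 20 cytosolic tRNA synthetases 17 were higher and 0 lower (85.0% and 0.0%, against 16.3% and 35.5% of all genes), with a median of 1.04. Aars measured 70.4, 65.0 and 54.6 RPKM in activated, against 30.8, 22.8 and 12.1 RPKM in naive libraries (log2 change 1.57, SE 0.29, adjusted p = 0.002). The glycyl enzyme Gars measured 120, 128 and 102 RPKM in activated, against 39.2, 36.3 and 42.5 RPKM in naive libraries (log2 change 1.54). The tyrosyl enzyme Yars measured 51.6, 54.7 and 46.2 RPKM in activated, against 18.9, 11.3 and 16.0 RPKM in naive libraries (log2 change 1.68). Vars, the valyl enzyme, was not called at 168, 176 and 153 RPKM in activated, against 177, 171 and 159 RPKM in naive libraries (adjusted p = 0.842). Of 13 amino acid transporters 3 were higher and 1 lower (23.1% and 7.7%, against 16.3% and 35.5% of all genes). After the subtraction 8 were higher and 0 lower of 12. With 1 library left out 2 to 5 were higher, most without naive library 1, and 0 to 3 lower, moved by every library but naive library 1. Slc7a5, which imports large neutral amino acids, changed most and measured 35.8, 42.7 and 39.4 RPKM in activated, against 11.6, 5.39 and 7.80 RPKM in naive libraries (log2 change 2.17). The other higher transporters were Slc43a1 (log2 change 1.57) and Slc7a1 (0.82), and the lower one was Slc1a5 (-0.35). The remaining 9 were not called, and the median of the list was 0.06. Of 35 genes of cholesterol and fatty acid synthesis 20 were higher and 1 lower (57.1% and 2.9%, median 0.77), and 29 and 0 of 34 after the subtraction (median 1.88), and 0 were lower when any 1 activated library was left out. Among them were Idi1 (27.8, 33.1 and 22 RPKM in activated, against 3.02, 4.68 and 5.20 RPKM in naive libraries; log2 change 2.44) and Fdps (85.3, 101 and 94.2 RPKM in activated, against 27, 19.7 and 12.7 RPKM in naive libraries; log2 change 2.24), which make isoprenoid precursors, and Sqle (47.5, 67.1 and 44.5 RPKM in activated, against 16.1, 3.58 and 13.4 RPKM in naive libraries; log2 change 2.35), which oxidises squalene.

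Most genes of the secretory apparatus rose, while 4 genes of the folding list fell. Of 37 genes of folding, the unfolded protein response and degradation at the endoplasmic reticulum 27 were higher and 4 lower (median 1.31). These were 73.0% and 10.8%, against 16.3% and 35.5% of all genes. Of 56 genes of translocation, glycosylation and vesicle transport 46 were higher and 3 lower (82.1% and 5.4%, median 0.98), with 1 lower without activated library 1 or 3. Xbp1 measured 402, 399 and 417 RPKM in activated, against 70.9, 75.3 and 44.1 RPKM in naive libraries (log2 change 2.70, SE 0.18, adjusted p = 1.1e-05). The chaperones Hspa5 and Hsp90b1, both with an ERSE match, measured 914, 807 and 823 RPKM in activated, against 302, 361 and 361 RPKM in naive libraries (log2 change 1.31) and 940, 854 and 898 RPKM in activated, against 147, 177 and 220 RPKM in naive libraries (log2 change 2.32). Derl3, a channel component of protein degradation, measured 139, 148 and 135 RPKM in activated, against 0.980, 3.58 and 8.55 RPKM in naive libraries (log2 change 5.0, SE 0.45, adjusted p = 5.7e-05), and Sdf2l1, a cofactor of Hspa5, 311, 302 and 304 RPKM in activated, against 33.4, 37.4 and 32.9 RPKM in naive libraries (log2 change 3.11). Ssr3 and Rpn1, of the translocon and the oligosaccharyl transferase, measured 111, 116 and 103 RPKM in activated, against 17.4, 16.7 and 14.3 RPKM in naive libraries (log2 change 2.70) and 226, 231 and 205 RPKM in activated, against 47.5, 46.2 and 44.4 RPKM in naive libraries (log2 change 2.23). For each of these genes the lowest activated library lay above the highest naive library.

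The 4 lower genes of the folding list belong in part to the PERK branch, in which ATF4 drives the death-linked factor CHOP and the phosphatase subunit GADD34. Ddit3, which encodes CHOP, measured 17.8, 22 and 21.8 RPKM in activated, against 113, 108 and 132 RPKM in naive libraries (log2 change -2.46, SE 0.14, adjusted p = 6.1e-06). Ppp1r15a, which encodes GADD34, measured 45.3, 46.7 and 47.5 RPKM in activated, against 140, 171 and 166 RPKM in naive libraries (log2 change -1.75). Atf4 itself measured 85.5, 90.6 and 91.4 RPKM in activated, against 199, 205 and 212 RPKM in naive libraries (log2 change -1.19). The cochaperone Dnajb9 measured 31.2, 31.2 and 32.9 RPKM in activated, against 50.3, 49.5 and 62.3 RPKM in naive libraries (log2 change -0.74). All 4 stood above 20 RPKM in naive libraries, did not overlap between groups, and were also lower with the receptor level subtracted. The tRNA synthetases with an ATF4 element were higher in activated cells (3 of 3, median log2 change 1.54). So were those without it in their promoter (9 of 10, median 1.04). Atf4 RNA was lower in the same group, and the level of ATF4 protein was not measured. Of 37 proteasome subunits 31 were higher and 2 lower (83.8% and 5.4%, against 16.3% and 35.5% of all genes). Their median was 0.85, and 1 was lower when any library other than naive library 1 was left out. Psmd14, the deubiquitinase of the regulatory particle, measured 183, 187 and 169 RPKM in activated, against 50.9, 65.8 and 62.7 RPKM in naive libraries (log2 change 1.58). The lower subunits were the immunoproteasome subunit Psmb10 (78.8, 78.9 and 78.5 RPKM in activated, against 130, 116 and 98.9 RPKM in naive libraries; log2 change -0.53) and the activator Psme1 (210, 212 and 215 RPKM in activated, against 230, 301 and 284 RPKM in naive libraries; log2 change -0.35). The Psme1 call was lost when any library other than naive library 1 was left out (adjusted p = 0.069 to 0.093), after the subtraction (0.053) and on the deposited scale (0.063).

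**Figure D5:**
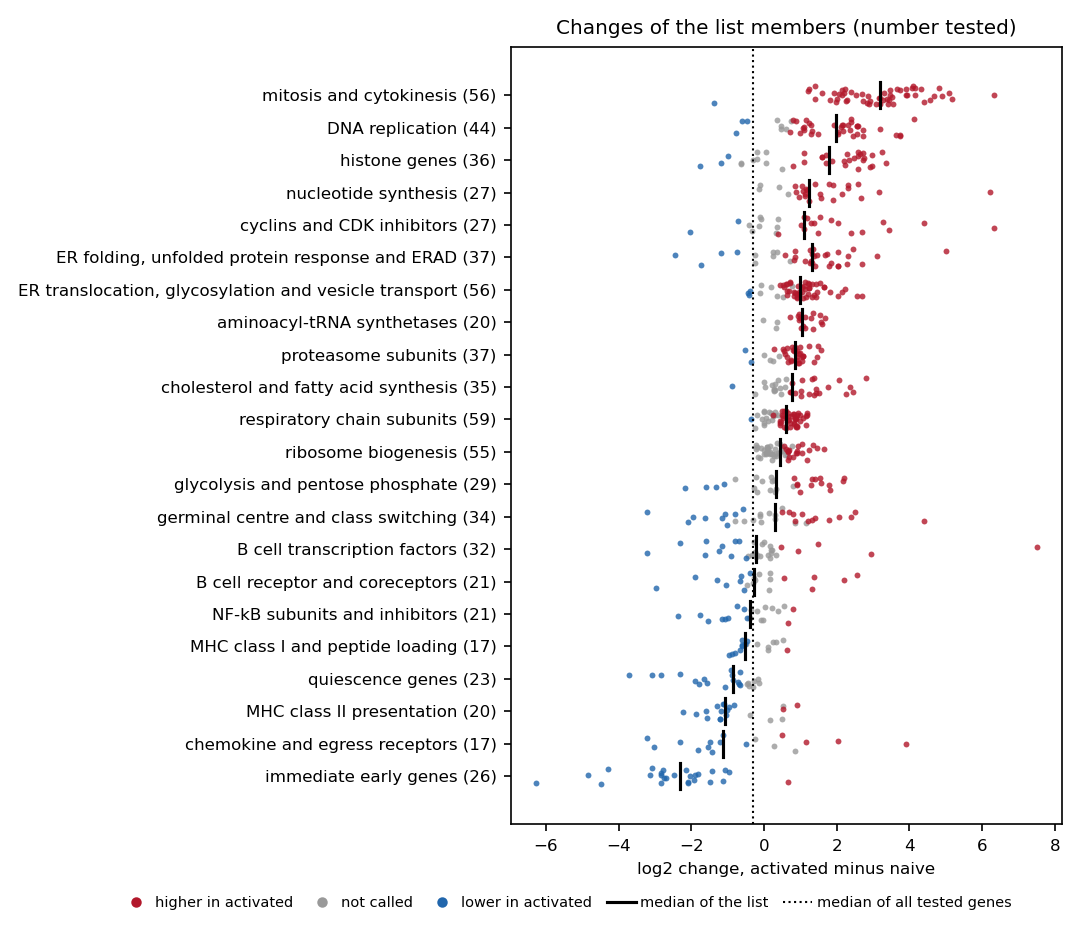
Log2 change (activated minus naive) of every tested member of 22 lists, with the number tested in parentheses, coloured by call; the black bar is the median of the list and the dotted line that of all tested genes. Mitosis and replication lie furthest right, with medians of 3.20 and 1.97, and immediate early genes furthest left, with a median of -2.31.

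Plasma cell genes were split between higher and lower calls. Of 21 plasma cell genes 11 were higher and 7 lower (52.4% and 33.3%, against 16.3% and 35.5% of all genes). After the subtraction 12 were higher and 2 lower of 19. Prdm1, which encodes BLIMP-1, measured 33.4, 35.7 and 25.4 RPKM in activated, against 0.753, 0.793 and 3.17 RPKM in naive libraries (log2 change 3.77). Bhlha15, a factor of secretory cells, measured 29.1, 29.1 and 34.7 RPKM in activated, against 0, 0.275 and 3.75 RPKM in naive libraries (log2 change 4.13). The antibody joining chain Jchain measured 273, 362 and 350 RPKM in activated, against 115, 111 and 123 RPKM in naive libraries (log2 change 1.48). Mzb1, a chaperone of antibody assembly, measured 854, 940 and 930 RPKM in activated, against 259, 343 and 302 RPKM in naive libraries (log2 change 1.60). Irf4, whose protein is needed at high dose for plasma cells, was lower, with 43.2, 48.1 and 41.6 RPKM in activated, against 58.8, 99.6 and 71.0 RPKM in naive libraries (log2 change -0.74, SE 0.19, adjusted p = 0.009), a call lost when replicate numbers 1 and 3 were blocked (adjusted p = 0.063). Sdc1, the plasma cell surface marker CD138, stood at 1.28, 1.28 and 0.734 RPKM in activated, against 8.47, 4.71 and 10.1 RPKM in naive libraries near the floor, and its lower call was lost after the subtraction (adjusted p = 0.099). Immunoglobulin constant region genes are not analysed here.

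The germinal centre and class switching list was divided, with 13 higher and 9 lower of 34 genes (median 0.29). These were 38.2% and 26.5%, against 16.3% and 35.5% of all genes. After the subtraction 16 were higher and 4 lower of 33 (median 0.94). Batf, a factor of the AP-1 family, measured 99.5, 99.5 and 88.8 RPKM in activated, against 25.0, 17.5 and 25.0 RPKM in naive libraries (log2 change 2.06). The mismatch repair gene Msh6 measured 40.2, 35.4 and 33.9 RPKM in activated, against 14.6, 17.3 and 20.2 RPKM in naive libraries (log2 change 1.04). The factor that defines germinal centres, Bcl6, went the other way with 3.09, 1.47 and 2.71 RPKM in activated, against 31.3, 31.6 and 27.7 RPKM in naive libraries (log2 change -3.22, SE 0.25, adjusted p = 2.2e-05). Bach2, a repressor of Prdm1, was lower too (4.82, 4.25 and 5.74 RPKM in activated, against 19.6, 15.4 and 16.4 RPKM in naive libraries; log2 change -1.61), as was Hmces, which shields abasic sites in DNA (12.3, 17.1 and 16.3 RPKM in activated, against 34.3, 34.4 and 30.7 RPKM in naive libraries; log2 change -1.08). The sort was made for GL7, an epitope that appears when the enzyme encoded by Cmah is lost. Cmah measured 13.7, 13.9 and 10.9 RPKM in activated, against 24.8, 27.6 and 17.3 RPKM in naive libraries (log2 change -0.79, adjusted p = 0.014), a lower call that was lost without activated library 4 (adjusted p = 0.062) and after the subtraction (adjusted p = 0.184).

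Among transcription factors of the B lineage the shares of calls were near those of all genes. Of 32 factors 5 were higher and 10 lower (15.6% and 31.2%, against 16.3% and 35.5% of all genes; median -0.21 and -0.115 without naive library 1), 8 and 8 of 31 after the subtraction (median 0.14), and 3 were higher when any 1 activated library was left out. Zbtb32, a repressor of the zinc finger family, changed most of all genes named by the rule, at 364, 342 and 337 RPKM in activated, against 2.84, 0 and 0.826 RPKM in naive libraries (log2 change 7.51, SE 0.40, adjusted p = 3.2e-06). Tbx21, which encodes T-bet, measured 44.9, 35.7 and 27.9 RPKM in activated, against 2.45, 3.94 and 5.44 RPKM in naive libraries (log2 change 2.93). Zeb2 measured 11.9, 12 and 12.2 RPKM in activated, against 3.24, 5.28 and 2.73 RPKM in naive libraries (log2 change 1.49). Klf2, which keeps B cells resting and recirculating, measured 118, 117 and 170 RPKM in activated, against 588, 732 and 680 RPKM in naive libraries (log2 change -2.31). Ets1, which restrains plasma cell formation, measured 83.6, 73.3 and 78.3 RPKM in activated, against 183, 197 and 177 RPKM in naive libraries (log2 change -1.23). The early B cell factor Ebf1 measured 15.1, 14 and 15 RPKM in activated, against 30.7, 29.9 and 25.1 RPKM in naive libraries (log2 change -0.91). Pax5, the factor of B cell identity, was not called, with 22.4, 19.8 and 16.2 RPKM in activated, against 42.2, 25.8 and 17.4 RPKM in naive libraries overlapping between groups (log2 change -0.45, adjusted p = 0.220). Without naive library 3 it was called lower (log2 change -0.743, adjusted p = 0.033).

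Of the B cell receptor and its coreceptors 5 were higher and 8 lower of 21 genes (23.8% and 38.1%, near the 16.3% and 35.5% of all genes; median -0.27). The signalling chains Cd79a and Cd79b measured 1321, 1349 and 1499 RPKM in activated, against 2079, 2085 and 1925 RPKM in naive libraries (log2 change -0.55) and 1027, 992 and 1206 RPKM in activated, against 1567, 1782 and 1603 RPKM in naive libraries (log2 change -0.62). The Cd79a call was lost with quantile normalization (adjusted p = 0.207). The low affinity IgE receptor Fcer2a (CD23) measured 93.8, 103 and 113 RPKM in activated, against 435, 426 and 308 RPKM in naive libraries (log2 change -1.89), and the complement receptor Cr2 (CD21) 43.6, 47.8 and 50.7 RPKM in activated, against 114, 94.3 and 146 RPKM in naive libraries (log2 change -1.28). Both are surface markers of resting B cells, and neither overlapped between groups. The inhibitory receptors Fcgr2b and Fcrl5 rose, with 209, 209 and 193 RPKM in activated, against 41.2, 46.9 and 42.8 RPKM in naive libraries (log2 change 2.20) and 101, 99.8 and 117 RPKM in activated, against 25.2, 11.2 and 17.3 RPKM in naive libraries (log2 change 2.56). Ms4a1, which encodes CD20, also rose (457, 412 and 460 RPKM in activated, against 252, 321 and 342 RPKM in naive libraries; log2 change 0.55). Downstream, 3 of 31 signalling genes were higher and 13 lower (9.7% and 41.9%, near the 16.3% and 35.5% of all genes). After the subtraction 4 were higher and 6 lower. With 1 library left out 1 to 5 were higher, moved by every library but naive library 2, and 7 to 16 lower, moved by each activated library. The adaptor Dok3 measured 48.4, 54.4 and 58.2 RPKM in activated, against 207, 160 and 172 RPKM in naive libraries (log2 change -1.72). The kinase Syk measured 204, 164 and 194 RPKM in activated, against 140, 103 and 93.6 RPKM in naive libraries (log2 change 0.75).

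Of 25 genes of Toll-like receptor sensing 4 were higher and 5 lower (16.0% and 20% in turn, against 16.3% and 35.5% of all genes). Their median was -0.03, and 0.11 after quantile normalization and 0.60 after the subtraction, which gave 7 higher and 4 lower of 24, with 3 lower without activated library 3. Ly96, which encodes the LPS binding partner of Toll-like receptor 4, was not called (20.2, 24.6 and 25.8 RPKM in activated, against 9.93, 15.9 and 25.8 RPKM in naive libraries; log2 change 0.52, adjusted p = 0.171). Without naive library 3 it was called higher (log2 change 0.845, adjusted p = 0.017). Cd180, which encodes RP105, was lower (16.6, 17 and 16.6 RPKM in activated, against 27.5, 31.1 and 26.6 RPKM in naive libraries; log2 change -0.73), and Ticam1, the adaptor of the interferon arm, higher (18.6, 21.8 and 20.9 RPKM in activated, against 6.63, 8.13 and 9.08 RPKM in naive libraries; log2 change 1.27). Of 21 NF-kB subunits and inhibitors 2 were higher and 9 lower (9.5% and 42.9%, against 16.3% and 35.5% of all genes). Their median was -0.38, and -0.05 after the subtraction and -0.113 without naive library 1, and 0 to 3 were higher with 1 library left out, moved by each activated library and naive library 2. Nfkbid, a nuclear inhibitor of NF-kB, measured 44.4, 43.2 and 46.1 RPKM in activated, against 242, 259 and 209 RPKM in naive libraries (log2 change -2.38). The subunit Rel measured 21.5, 16.7 and 21.4 RPKM in activated, against 77.1, 75.3 and 57.3 RPKM in naive libraries (log2 change -1.76). Nfkbia, the best known feedback inhibitor, was not called (251, 239 and 269 RPKM in activated, against 232, 280 and 228 RPKM in naive libraries; adjusted p = 0.771). Of 12 genes listed for BAFF, APRIL and TNF family receptors 1 was higher and 8 lower (8.3% and 66.7%, against 16.3% and 35.5% of all genes). Their median was -0.98. After the subtraction 1 was higher and 4 lower of 10 (median -0.25). The 1 higher gene was Tnfrsf13b, which encodes the BAFF and APRIL receptor TACI (267, 301 and 250 RPKM in activated, against 163, 79.5 and 86.2 RPKM in naive libraries; log2 change 1.38). Cd40, the receptor for T cell help, was among the lower genes (84.2, 71.4 and 94.0 RPKM in activated, against 149, 134 and 127 RPKM in naive libraries; log2 change -0.71).

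Most homing and egress receptors were lower, and Cxcr3 was higher. Of 17 chemokine and egress receptors 4 were higher and 10 lower (23.5% and 58.8%, against 16.3% and 35.5% of all genes), with a median of -1.12. The counts were 6 and 9 of 16 after the subtraction, and 2 were higher at the least with activated library 3 or 4 or naive library 3 left out. Ccr7, which guides cells to T cell zones, measured 67.7, 61.7 and 67.1 RPKM in activated, against 476, 707 and 479 RPKM in naive libraries (log2 change -3.04, SE 0.15, adjusted p = 2.8e-06). S1pr1, the receptor for leaving lymphoid tissue, measured 47.4, 48.8 and 57.5 RPKM in activated, against 176, 155 and 218 RPKM in naive libraries (log2 change -1.81). Cxcr4 measured 7.67, 11.4 and 16.7 RPKM in activated, against 128, 98.5 and 117 RPKM in naive libraries (log2 change -3.21), with activated library 4 the highest of its group. Cxcr3, the receptor for interferon-induced chemokines and a known target of T-bet, measured 73.1, 63.5 and 31.8 RPKM in activated, against 1.49, 4.17 and 2.56 RPKM in naive libraries (log2 change 3.91, SE 0.36, adjusted p = 5.9e-05). Among 22 integrins and adhesion genes 8 were higher and 10 lower (36.4% and 45.5%, against 16.3% and 35.5% of all genes). The counts were 9 and 4 after the subtraction and 4 and 5 after quantile normalization. At the least 4 were higher with 1 of the activated libraries left out. Itgb1, the common beta chain, measured 152, 152 and 123 RPKM in activated, against 23.2, 17.7 and 16.9 RPKM in naive libraries (log2 change 2.83). Itgb7, the beta chain of gut homing, measured 26.0, 23.7 and 33.3 RPKM in activated, against 184, 156 and 114 RPKM in naive libraries (log2 change -2.40).

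Most genes of antigen presentation by MHC class II were lower. Of 20 genes 2 were higher and 14 lower (10.0% and 70.0%, against 16.3% and 35.5% of all genes). Their median was -1.07, and the counts were 3 and 13 after the subtraction. Cd74, the invariant chain, measured 3702, 3508 and 4094 RPKM in activated, against 9998, 8442 and 7848 RPKM in naive libraries (log2 change -1.21, SE 0.10, adjusted p = 3.0e-05). After quantile normalization its log2 change was -0.000 and the call was lost. That setting gives genes of equal rank the same value in every library. A gene ranked alike in all 6 libraries comes out at 0 there whatever its change, so this lost call is no check on Cd74. The structural gene H2-Aa measured 976, 942 and 1074 RPKM in activated, against 2062, 2290 and 2063 RPKM in naive libraries (log2 change -1.10). H2-Oa, an inhibitor of peptide loading, measured 35.0, 37.9 and 48.1 RPKM in activated, against 182, 210 and 179 RPKM in naive libraries (log2 change -2.22). The master regulator Ciita measured 38.5, 33.1 and 38 RPKM in activated, against 92.9, 73.4 and 55.9 RPKM in naive libraries (log2 change -0.97). The lysosomal proteases Ctss (log2 change -0.83) and Ctsl (log2 change -1.17) were lower too. The Ctsl call was lost after the subtraction, which turned its sign (log2 change 0.403, adjusted p = 0.445), after quantile normalization (adjusted p = 0.202) and without activated library 3 (adjusted p = 0.066). The 2 higher genes were the lysosomal enzymes Lgmn, at 95.0, 97.5 and 110 RPKM in activated, against 56.1, 49.1 and 54.4 RPKM in naive libraries (log2 change 0.91) and Ifi30, at 229, 222 and 280 RPKM in activated, against 165, 160 and 181 RPKM in naive libraries (log2 change 0.52), and the Ifi30 call was lost after quantile normalization (adjusted p = 0.052). MHC class I and its loading genes had 1 higher and 9 lower of 17 (5.9% and 52.9%, against 16.3% and 35.5% of all genes), with a median of -0.51. Without naive library 1 there were 2 higher. H2-D1 measured 926, 913 and 841 RPKM in activated, against 1625, 1616 and 1457 RPKM in naive libraries (log2 change -0.81).

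Costimulatory and regulatory genes had 3 higher and 13 lower of 24 (12.5% and 54.2%, against 16.3% and 35.5% of all genes), with a median of -0.79. After the subtraction 7 were higher and 11 lower of 22. Without naive library 2 there were 5 higher. Icosl, the ligand of ICOS on T cells, measured 4.65, 3.66 and 5.77 RPKM in activated, against 91.5, 98.7 and 69.9 RPKM in naive libraries (log2 change -3.95). Cd55, a brake on complement, measured 20.2, 21.3 and 22.3 RPKM in activated, against 190, 212 and 164 RPKM in naive libraries (log2 change -3.08). Cd86 measured 39.0, 42.5 and 36.4 RPKM in activated, against 19.1, 17.9 and 19.0 RPKM in naive libraries (log2 change 1.03) and Lgals1, which encodes galectin-1, 94.6, 94.9 and 113 RPKM in activated, against 15, 15.6 and 22.2 RPKM in naive libraries (log2 change 2.47). Il10, a suppressive cytokine, was also higher at 15.3, 18.2 and 10.8 RPKM in activated, against 2.21, 0.550 and 1.57 RPKM in naive libraries (log2 change 2.73).

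Genes of quiescence and of the immediate early response were mostly lower. Of 23 quiescence genes 0 were higher and 16 lower (0.0% and 69.6%, against 16.3% and 35.5% of all genes). Their median was -0.86, and the counts were 0 and 13 after the subtraction. Tsc22d3, a glucocorticoid-induced leucine zipper, measured 13.8, 14.2 and 22.3 RPKM in activated, against 242, 239 and 199 RPKM in naive libraries (log2 change -3.71). The antiproliferative gene Btg1 measured 70.3, 72.8 and 88.2 RPKM in activated, against 278, 308 and 280 RPKM in naive libraries (log2 change -1.90). Of 26 immediate early genes 1 was higher and 25 lower (3.8% and 96.2%), with a median of -2.31. The counts were 1 and 21 of 23 after the subtraction, with 0 higher when any 1 activated library was left out. The 1 higher gene was Nfkbiz, a nuclear inhibitor of the NF-kB family (28.6, 27.4 and 28.3 RPKM in activated, against 15.3, 22.1 and 15.6 RPKM in naive libraries; log2 change 0.66). Nr4a1, an orphan nuclear receptor induced by antigen receptor signals, measured 3.99, 3.91 and 3.70 RPKM in activated, against 506, 333 and 311 RPKM in naive libraries (log2 change -6.27, SE 0.19, adjusted p = 6.2e-07), and Atf3 4.57, 5.62 and 4.80 RPKM in activated, against 212, 188 and 127 RPKM in naive libraries (log2 change -4.85). The heat shock gene Hspa1a measured 4.69, 8.14 and 11.1 RPKM in activated, against 138, 84.5 and 401 RPKM in naive libraries, with naive library 3 the highest, and shares reads with its near copy Hspa1b. Cd69, a surface marker of recent activation, measured 45.7, 38.6 and 38.2 RPKM in activated, against 257, 334 and 268 RPKM in naive libraries (log2 change -2.77). Its level was lower in the cells sorted as activated than in those enriched as naive. The naive cells were bead enriched and the activated cells were sorted, and the part of handling was not tested.

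Interferon-stimulated genes also had shares of calls near those of all genes. Of 44 genes 5 were higher and 19 lower (11.4% and 43.2%, against 16.3% and 35.5% of all genes; median -0.52), and 8 and 10 of 40 after the subtraction (median 0.07), with 8 higher without naive library 1. The 5 higher genes were Isg15 (56.0, 60.9 and 54.0 RPKM in activated, against 5.09, 13.3 and 8.84 RPKM in naive libraries; log2 change 2.61), Isg20 (37.4, 42.6 and 44.6 RPKM in activated, against 9.49, 7.70 and 6.01 RPKM in naive libraries; log2 change 2.30), Gbp2, Gbp3 and Gbp7. The guanylate binding proteins are best known as targets of interferon gamma, and Gbp3 measured 108, 98.6 and 112 RPKM in activated, against 33.5, 40.6 and 35.8 RPKM in naive libraries (log2 change 1.51). The regulators Irf7 and Irf1 were lower, at 13.0, 19.3 and 18.5 RPKM in activated, against 34.0, 38.2 and 49.5 RPKM in naive libraries (log2 change -1.22) and 34.3, 32.0 and 32.7 RPKM in activated, against 105, 86.3 and 69.2 RPKM in naive libraries (log2 change -1.35). Of 17 members with a match to the core of the response element (a pair of TTTC with 2 bases between) 4 were higher and 6 lower, and of 16 without a match 1 was higher and 9 lower.

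Some enzymes that copy repressive chromatin marks after replication were among the higher genes. Ehmt2, which encodes G9a, was not called, with 21.6, 19.5 and 25.7 RPKM in activated, against 27.7, 16.7 and 13.8 RPKM in naive libraries (log2 change 0.24, adjusted p = 0.448). Without naive library 1 it was called higher (log2 change 0.516, adjusted p = 0.040). Of 21 genes of histone H3 lysine 9 methylation 4 were higher and 2 lower (19.0% and 9.5%, against 16.3% and 35.5% of all genes). After the subtraction 9 were higher and 0 lower, and 0 to 4 were lower with an activated library or naive library 1 left out. Suv39h1, a trimethylating enzyme, measured 36.8, 36.7 and 31.0 RPKM in activated, against 6.4, 8.69 and 7.70 RPKM in naive libraries (log2 change 2.06). Cbx5, a heterochromatin protein that reads the mark, measured 15.1, 20.7 and 14.4 RPKM in activated, against 5.46, 3.71 and 2.74 RPKM in naive libraries (log2 change 1.85). The maintenance DNA methyltransferase Dnmt1 measured 52.0, 46.4 and 39.7 RPKM in activated, against 22.1, 12.9 and 18.7 RPKM in naive libraries (log2 change 1.34). In the Polycomb complex the catalytic subunits moved in opposite directions. Ezh2 measured 56.4, 53.0 and 53.6 RPKM in activated, against 7.17, 7.37 and 8.32 RPKM in naive libraries (log2 change 2.68). Its paralog Ezh1, known from resting cells, measured 8.56, 7.19 and 8.21 RPKM in activated, against 21.5, 17.4 and 15.7 RPKM in naive libraries (log2 change -1.09). The accessory subunit Phf1 measured 2.15, 1.90 and 2.91 RPKM in activated, against 29.6, 24.9 and 21.0 RPKM in naive libraries (log2 change -2.98).

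The KO libraries gave the same step in another genotype, with no library in common. There 2208 genes were higher (18.3%) and 3062 lower (25.4%) of 12056 tested. Of the 2039 genes higher in Ctrl and tested in KO, 1591 were higher in KO and 3 lower. Of the 3919 genes lower in Ctrl and tested in KO, 2240 were lower in KO and 9 higher. The difference of the steps between genotypes was called for 8 genes as higher in KO and for 16 as lower (0.189% of 12709), and 1491 genes had an unadjusted p under 0.05. These counts changed much with the libraries and settings used, and without naive KO library 2 they were 169 and 81. The KO log2 change was 6.22 for Ube2c and 5.38 for Rrm2, against 6.34 and 6.23 in Ctrl. For Xbp1 it was 1.49 in KO and 2.70 in Ctrl, a difference that was not called (limma adjusted p = 0.060). For Jchain it was -0.21 in KO and 1.48 in Ctrl, a difference that was called (adjusted p = 0.001).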

How the data were processed

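The deposited table holds RPKM values per gene for 18 libraries and 12960 genes, as the authors made them. Reads were aligned with STAR to mm10, per the submitters' processing notes; their versions, the counter and the gene annotation are not stated there. All value columns were used (0 left out). Coordinates and promoters came from RefSeq on GRCm38.p6, and 12946 Entrez IDs matched. Libraries were scaled by the median of ratios over 8012 genes above 1 RPKM in all 18 libraries. Log2(scaled RPKM + 1) of the 6 libraries was fitted with limma 3.58.1 in R 4.3.3 (empirical Bayes with trend), over genes with a mean of at least 1 RPKM in 1 group, with Benjamini-Hochberg adjustment and a threshold of 0.05; fold changes on this scale understate the change of low genes. The study's own model is not given. Plots used matplotlib 3.10.9, and tables pandas 2.3.3 and numpy 2.4.6 in Python 3.11.15.

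Genes open to naming were set by size: in each direction the 15 called genes that changed most, among those at 20 RPKM or more in 1 group with no overlap, all members of lists of up to 15 genes, up to 6 of larger lists, and a fixed set of B cell genes. This gave 288 genes. Only part of them are described, and the choice among them followed no stated rule. Outside the rule by size, chosen after their values were seen, are Atf4, Calr, Canx, Cbx5, Ccnd1, Cd69, Cd74, Cdkn2c, Cdt1, Ciita, Ctsl, Ctss, Dnajb9, Dnajc3, Ebf1, Ero1lb, H2-Aa, Hmces, Hspa5, Iars, Ifi30, Il10, Irf1, Irf7, Jchain, Lgmn, Ly96, Mcm5, Msh6, Ndufa3, Nfkbia, Nfkbiz, Nop56, Pdia6, Pold1, Ppp1r15a, Psmb10, Psme1, Pttg1, Rfc1, Slc2a1, Syvn1, Vars and Zeb2. Members and lists were chosen with earlier results of these data known. The subtraction of the receptor level was chosen after seeing the data. On simulated data 76% of 50 genes with a log2 change of 2 and 44% of 50 genes with a change of 1 were called. For changes of -2 and -1 the shares were 81.2% of 48 and 37.2% of 43 genes. There were 22 false calls of 11814 genes tested. As a share of all calls on the simulated data, these false calls were above the threshold set for adjusted p-values. Adjusted p-values may therefore be too small. RPKM carries no depth; where low values fell into steps the depth was estimated from them, and otherwise it is unknown. Replicate numbers 1 and 3 occur in both groups, but nothing says that equal numbers share an animal or day, so the fit has no block. Left out were the plasma cell libraries, which entered the scaling and the fit to all libraries. Results for some genes are not reported here.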

Additional observations from a re-analysis of the deposited data

Results flagged for a closer look

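The step from naive to activated cells differed between KO and Ctrl, by a test of the difference itself (limma, 12 libraries), in 7 of the genes described, each time with a smaller value in KO. The difference of the log2 changes, KO minus Ctrl, was -2.0 for Irf7 (adjusted p = 0.022), -1.69 for Jchain (0.001), -1.31 for Dnajb9 (0.040), -0.96 for Btg1 (0.041), -0.89 for Sdf2l1 (0.043), -0.68 for Cd79b (0.048) and -0.66 for Cd79a (0.043). The log2 change itself was -0.21 in KO and 1.48 in Ctrl for Jchain, and 2.22 in KO and 3.11 in Ctrl for Sdf2l1. It was -3.22 in KO and -1.22 in Ctrl for Irf7, and -2.86 in KO and -1.90 in Ctrl for Btg1. The number of such calls changed with the settings, as given below.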

How the results depend on the processing

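The counts of 2046 higher and 4464 lower genes were within 1.5 times of the main values under the deposited scale, both other pseudocounts, library weights, no filter and all 18 libraries together. They moved by over 1.5 times under 5 settings. Filters gave 2215 lower genes at 5 RPKM and 997 at 20 RPKM, quantile normalization gave 1991 lower, and subtraction of the receptor level gave 3571 higher and 872 lower. Of all calls 31.4% were higher in the main fit, 33.6% on the deposited scale, 46.5% at 5 RPKM, 60.0% at 20 RPKM, 50.5% after quantile normalization and 80.4% after the subtraction. The median log2 change of all genes was -0.30, and -0.04 after quantile normalization and 0.59 after the subtraction. Leaving out 1 library gave 1447 to 2256 higher and 2930 to 4712 lower genes, and the 2930 lower genes without activated library 3 were past the limit of 1.5 times. The difference between genotypes (8 higher and 16 lower) gave 5 and 10 on the deposited scale, 172 and 162 with all 18 libraries, 14 and 44 at 20 RPKM, 11 and 25 at 5 RPKM, 5 and 2 with library weights, 6 and 11 with no filter, 4 and 12 with a pseudocount of 0.1, 17 and 24 with 5, 2 and 9 after quantile normalization, 16 and 34 after the subtraction, and 0 to 169 and 3 to 81 with 1 library left out. The causes were not tested.

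The replicate block on numbers 1 and 3 gave 1836 higher and 3445 lower genes, 2398 and 4850 with all 18 libraries, and 1 and 4 for the difference between genotypes. Deviations of equally numbered libraries correlated at 0.000401 and -0.153, and that of activated library 3 with naive library 2 at 0.130; whether equal numbers share an animal or day is not given. Under the block the calls of Irf4 (adjusted p = 0.063), Cd180 (0.065), Pold1 (0.056), Rfc1 (0.090), Psme1 (0.140) and Cmah (0.155) were lost, and Cd3e was called lower (0.003). With all 18 libraries and the block the Cd86 call was lost (0.082). Depth limits low genes, and the naive floor of 3.97 to 5.32 RPKM bounds what can be read there. Genes without a call changed sign in single settings, with log2 changes of -0.083 after quantile normalization for Nfkbia and -0.011 to -0.001 without single libraries, -0.088 after quantile normalization for Nop56, 0.130 without naive library 1 for Slc2a1, and 0.021 on the deposited scale, 0.038 under the block and 0.008 after the subtraction for Vars. Leaving out 1 library gave -0.011 to 0.135 for Nfkbia, -0.416 to 0.130 for Slc2a1 and -0.071 to 0.029 for Vars. The lower call of Ctsl turned to 0.403 after the subtraction, without a call.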
